A study of Rattus norvegicus with 4 samples.

Results

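The genes described here encode the machinery of regulated exocytosis, and they were followed across the cell types of the rat anterior pituitary. They were chosen by symbol alone: the synaptotagmins (*Syt*), syntaxins (*Stx*), syntaxin-binding proteins (*Stxbp*), the genes named *Snap* with a number, the VAMPs, complexins (*Cplx*), UNC13 genes, *Rab3a* to *Rab3d*, *Rab27*, RIMs and synapsins, each with at least 1 UMI (unique molecular identifier, 1 counted RNA molecule) in 30 or more cells. This left 67 genes of the 73 with such names, out of 16932 genes of the series found in as many cells. They were 15 synaptotagmins, 14 syntaxins, 7 syntaxin-binding proteins, 7 VAMPs, 6 *Rab3* and *Rab27* genes, 5 *Snap* genes, 4 UNC13 genes, 4 RIMs, 3 synapsins and 2 complexins. The 6 genes that missed the rule were *Stx19* (14 cells), *Cplx3* (12 cells), *Cplx4* (2 cells), *Syt2* (1 cell), and *Syt8* and a first entry named *Unc13c* (0 cells each), and the nearest inside it were *Syt10* (30 cells), *Stx11* and *Rims3* (31 cells each). *Snap91* fits the name pattern but encodes a clathrin assembly protein, not a SNARE.

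Endocrine cells store hormone in dense-core granules and release it when calcium rises. Fusion is driven by SNARE proteins, of which a VAMP sits on the granule and a syntaxin with a SNAP-25-type protein sits on the plasma membrane. Sec1/Munc18 proteins (*Stxbp*) and UNC13 proteins prepare the SNAREs, some of the synaptotagmins sense calcium, and complexins clamp and promote fusion. Rab3 and Rab27 GTPases with their effectors, such as RIMs, tether granules to release sites. The same machinery, with synapsins that hold vesicles in clusters, serves neurotransmitter release, and other members of these families act in traffic within any cell.

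The series profiled dispersed anterior pituitary cells of Sprague Dawley rats by single-cell RNA sequencing from the 3′ end of transcripts. Females were taken in diestrus at 44 days of age and males at 59 days. Each sex was 1 pool of animals loaded on 2 lanes, so lanes are technical replicates, no spread between animals is known, and sex cannot be told apart from pool and age. Lanes are named by their barcode number: lanes 1 and 2 are female, lanes 3 and 4 male, and 4 values in a row below follow that order.

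Of 7861 cells, 6845 were used. They were 791 corticotrophs (C, which make ACTH), 238 gonadotrophs (G), 88 thyrotrophs (T), 1885 somatotrophs (S), 485 lactotrophs (L), 2316 folliculostellate cells (FSC, the non-endocrine network cells), 548 leukocytes, 133 endothelial cells and 361 erythrocytes. The used cells held between 16206290 and 19699692 UMIs per lane. Marker genes set the types, and genes not used for typing were highest in the types they mark: *Tbx19* was at 203 CPM (UMIs scaled to a common total, here without further normalisation) in C, *Nr5a1* at 169 in G, *Pou1f1* at 211 to 512 in T, S and L, and *Sox2* at 204 in FSC, while *Pcsk1n*, a granule protein gene, was almost unread in every type. The Y-linked genes *Eif2s3y* and *Ddx3y* gave 8 and 9 UMIs in lanes 1 and 2 and 1727 and 1706 in lanes 3 and 4. Levels below are CPM with edgeR's TMM scaling, with the mean ± SD of the 4 lanes of a type. A 3′ UMI is counted once per transcript, but capture differs between transcripts, so levels are compared between cell types and not between genes.

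The highest mean level lay in C for 13 of the 67 genes, in leukocytes for 13, in T and L for 11 each, in S for 6, in G for 5, and in FSC and endothelial cells for 4 each. These are 19.4% in C, 19.4% in leukocytes and 16.4% each in T and L, where 9.17%, 21%, 10.1% and 9.72% of the genes found in as many cells were highest in these types. FSC and endothelial cells held 5.97% each, against 16% and 15.5%. In T, 5 of the 11 genes rested on 10 UMIs or fewer: *Rims3* (2), *Stxbp5l* (3), *Rims4* (4), *Syt16* (6) and *Syt12* (7). In cells thinned to 4000 UMIs, a corticotroph had UMIs of a median of 10 of the genes, T of 9, G of 8, S and L of 7, endothelial cells of 6, FSC of 5, leukocytes of 4 and erythrocytes of 0. Single hormone genes took large shares of UMIs: *Gh1* 27.6% to 31.4% in S lanes and *Prl* 17.6% to 32% in L lanes. *Pomc* took 18.8% to 22.7% in C lanes. The part of such shares in these medians was not tested. The plot of levels by type shows some genes at high level in the hormone-producing cells (HPC: C, G, T, S and L) and others at like level everywhere. Further genes are highest outside HPC, such as *Vamp5* in endothelial cells, *Snap23* in leukocytes and *Unc13b* in FSC.

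**Figure D1:**
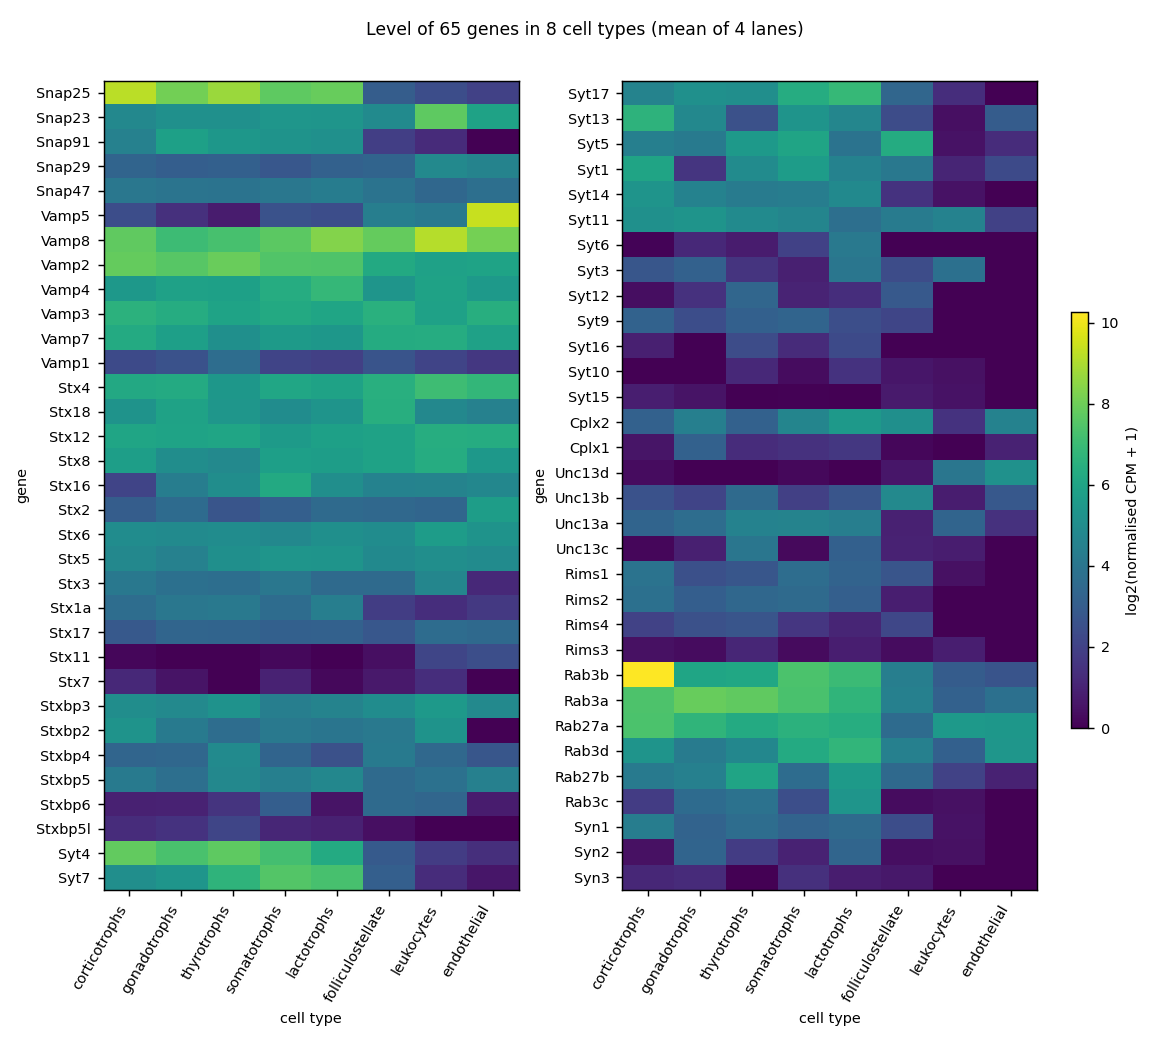
Level of 65 genes (rows, grouped by family) in 8 cell types (columns), as log2(normalised CPM + 1) of the mean of 4 lanes. *Rab3b* in corticotrophs (mean 1231 CPM) is the brightest cell, and *Vamp5* is bright in endothelial cells (686 CPM).

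To ask which genes set endocrine cells apart, UMIs were summed per type and pool and tested with edgeR (quasi-likelihood, pool as block, 13635 genes, Benjamini-Hochberg adjusted p under 0.05). Of the genes described here, 59 had enough UMIs. Against FSC, 26 were higher in HPC and 11 lower, that is 44.1% and 18.6% of those tested, where 19.5% and 29.3% of all genes passed in these directions. Against the mean of the log2 levels of leukocytes and endothelial cells, 34 were higher and 11 lower (57.6% and 18.6%, with 29.1% and 27% of all genes). Every comparison below with leukocytes and endothelial cells uses this mean. A gene could thus pass as higher while leukocytes held more of it, as with *Stxbp2* and *Stx3*, both highest in leukocytes. The median log2 difference of the 59 genes was 0.38 against FSC and 1.77 against leukocytes and endothelial cells, and that of all genes was -0.12 and 0.06. *Syt5*, *Cplx2* and *Stx18* were lower in HPC than in FSC and higher than in leukocytes and endothelial cells. The share of all genes with both calls was not counted. For *Cplx2* the second call was kept in 12 of 14 alternatives. A *Cplx2* UMI was seen in 21.1% of endothelial cells and 9.09% of T. The p-values rest on 2 pools, with pool as a block. They measure how far differences between types vary from pool to pool, and not the spread between animals.

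**Figure D2:**
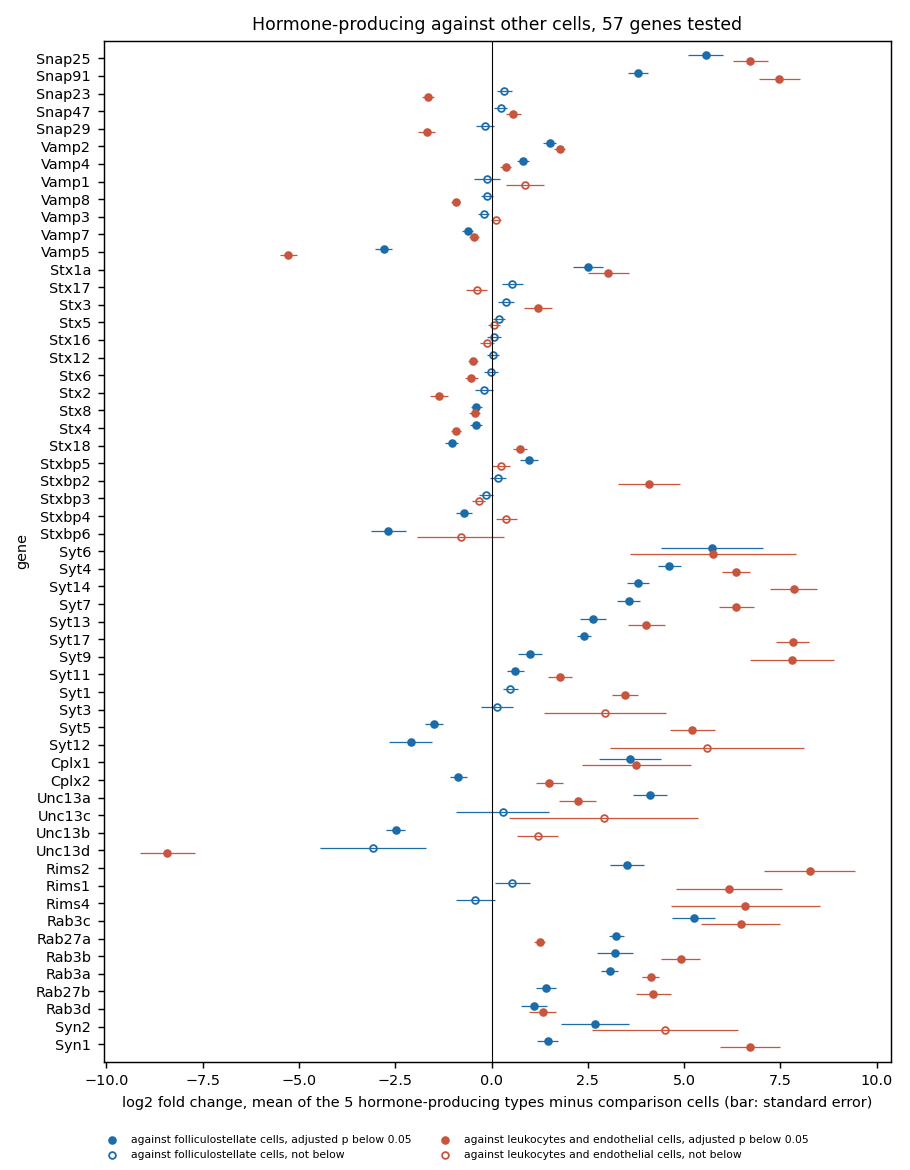
Log2 fold change of 57 genes between the mean of the 5 hormone-producing types and FSC (blue) or leukocytes and endothelial cells (red), with standard errors as bars and filled points for adjusted p below 0.05. Fitted values of genes with no UMI in the comparison cells depend on the fit and are no measured fold. All 6 *Rab3* and *Rab27* genes lie to the right of 0 in both comparisons, while *Vamp5* and *Vamp7* lie to the left in both.

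Among the plasma membrane SNAREs, *Snap25*, the SNAP of neurons and endocrine cells, had one of the widest differences. Its level in C was 570, 599, 616 and 600 CPM, in S 216, 213, 211 and 194, and in FSC 3.86, 3.01, 12.1 and 9.65. Every lane of every HPC type was above every FSC lane. The means of G (271 ± 52.4), T (418 ± 155) and L (235 ± 97.6) lay between those of C and S. By lane, the female L lanes lay below all S lanes and the male L lanes above them. The log2 difference of HPC was 5.56 ± 0.46 (SE) against FSC (edgeR adjusted p = 5.72e-08). A *Snap25* UMI was seen in 99.2% of C, 83.5% of L and 4.66% of FSC, or in 91.7%, 53.8% and 2.13% after thinning. Erythrocytes, which should lack it, had it in 0.831% of cells at a median of 8246 UMIs, against 6898 UMIs in FSC. *Gh1*, the growth hormone gene of somatotrophs, made up 0.104% to 0.153% of UMIs in erythrocyte lanes and 0.25% to 0.454% in FSC lanes. Stray RNA may thus be less in erythrocytes than in FSC, which was not tested.

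The widely expressed relatives behaved differently. *Snap23*, the SNAP of non-neuronal secretion, was at 26.4 to 41.5 CPM in the HPC types, 28.9 ± 1.51 in FSC and 209 ± 24.9 in leukocytes, and the log2 difference of HPC from leukocytes and endothelial cells was -1.64 ± 0.16 (edgeR adjusted p = 2.59e-07). *Snap29*, which acts in intracellular fusion, showed a log2 difference of -1.68 ± 0.22 in that comparison and of -0.16 ± 0.23 against FSC, where it did not pass the test. *Snap47* was at 14.1 to 19 CPM in HPC and 14.1 in FSC, and its call against leukocytes and endothelial cells (0.57 higher on the log2 scale) was lost without lane 1, 3 or 4 (adjusted p = 0.12, 0.13 and 0.0777). *Snap91* was at 22.1 to 56.6 CPM in HPC, 2.73 ± 1.03 in FSC and 1.43 ± 1.08 in leukocytes, with no UMI in endothelial cells.

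Of the 12 syntaxins tested, 1 was higher in HPC than in FSC, as were 19.5% of all genes. This syntaxin was *Stx1a*, the plasma membrane syntaxin of regulated release (log2 difference 2.50 ± 0.39, edgeR adjusted p = 6.24e-05). It was at 20 ± 8.62 CPM in L, 11.5 ± 1.53 in S, 2.61 ± 0.80 in FSC and 1.51 ± 1.32 in leukocytes. Of all genes, 29.1% were higher and 27% lower in HPC than in leukocytes and endothelial cells. Of the syntaxins tested, 4 were higher and 5 lower. These 5 were *Stx4* and *Stx2*, plasma membrane syntaxins of many tissues, and *Stx12*, *Stx6* and *Stx8*, which act on endosomes. Their log2 differences were between -1.36 (*Stx2*) and -0.44 (*Stx8*), and those of *Stx6* and *Stx8* lost the call when lane 1 was left out (adjusted p = 0.0574 and 0.416), as did *Stx6* without lane 2 (0.0718). *Stx4* and *Stx8* were also lower than in FSC (-0.40 ± 0.15 and -0.39 ± 0.15), and both calls were lost without lane 1 or lane 4 (adjusted p from 0.0606 to 0.138). *Stx18*, a syntaxin of the endoplasmic reticulum, was highest in FSC, at 69.6, 79.3, 99.6 and 92.3 CPM, with 30.7 to 58.7 in the HPC types (log2 difference -1.03 ± 0.17, adjusted p = 9.38e-05). *Stx3* was at 10.6 to 16.1 CPM in HPC and 10.8 in FSC.

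Among the VAMPs, *Vamp2*, the granule SNARE that pairs with SNAP-25 and syntaxin, was well above FSC in each HPC type. It was at 228 ± 8.71 CPM in C, 192 ± 31.4 in G, 244 ± 55.5 in T, 175 ± 4.12 in S, 173 ± 32.4 in L and 73.7 ± 3.33 in FSC. No difference among the 5 HPC types passed (edgeR F-test, adjusted p = 0.155), while the difference from FSC was 1.51 ± 0.17 on the log2 scale (adjusted p = 2.23e-06). *Vamp4*, a VAMP of the trans-Golgi network, was also higher than in FSC (0.82 ± 0.16) and was highest in L, at 113 ± 26.2 CPM. *Vamp3*, of recycling endosomes, was at 61.6 to 94.6 CPM in HPC and 90.2 in FSC and passed in neither comparison. *Vamp1*, a close relative of *Vamp2* in neurons, was at 2.81 to 11.7 CPM in HPC and 5.34 in FSC and passed in neither.

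*Vamp5* and *Vamp8* were both lower in HPC than in leukocytes and endothelial cells, but only *Vamp5* was also lower than in FSC. *Vamp5* was at 644, 748, 707 and 644 CPM in endothelial cells and at no more than 7.90 CPM in any HPC lane, with 19.8 ± 4.16 in FSC. It was lower in HPC than in leukocytes and endothelial cells (log2 difference -5.27 ± 0.22, adjusted p = 1.62e-11) and also against FSC (-2.80 ± 0.21). *Vamp8*, known from secretion in blood cells and exocrine glands, was highest in leukocytes (553 ± 35.6 CPM) but was also at 325 ± 13.5 in L, 218 ± 3.34 in C and 132 ± 34.1 in G. Its log2 difference was -0.93 ± 0.12 from leukocytes and endothelial cells and -0.12 ± 0.16 from FSC, where it did not pass. *Vamp7*, of late endosomes and lysosomes, was lower in HPC in both comparisons (-0.62 ± 0.14 and -0.46 ± 0.13), and the second was lost without lane 1 or lane 2 (adjusted p = 0.0568 and 0.0504).

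Among the syntaxin-binding proteins, *Stxbp2* and *Stxbp3*, of broader tissue range, did not pass against FSC (0.16 ± 0.20 and -0.14 ± 0.17), and *Stxbp2* was at 37.3 CPM in C, 37.6 in leukocytes and 0 UMIs in endothelial cells, which allows up to 2.09 CPM. *Stxbp5*, or tomosyn, a syntaxin-binding inhibitor of SNARE assembly, was higher in HPC than in FSC (0.97 ± 0.23, adjusted p = 0.00254), and its paralog *Stxbp5l* had 70 UMIs in the whole file and was not tested. *Stxbp6*, or amisyn, another SNARE-binding inhibitor, was lower in HPC than in FSC (-2.68 ± 0.45, adjusted p = 0.000125). It was at 7.46 ± 1.38 CPM in S and at 0.439 to 1.89 in the other HPC types, against 10.9 ± 6.09 in FSC. *Stxbp4*, known from insulin-regulated vesicle traffic, was lower in the mean of the HPC types than in FSC as well (-0.71 ± 0.20, adjusted p = 0.00879). T went the other way, at 29.2 ± 8.34 CPM against 17.7 ± 2.99 in FSC and 4.90 to 9.71 in the other HPC types, and the call was lost with equal numbers of cells per type (adjusted p = 0.393).

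Of the 12 synaptotagmins tested, 8 were higher in HPC than in FSC and 2 lower (19.5% and 29.3% of all genes). Against leukocytes and endothelial cells 10 of the 12 were higher (29.1% of all genes), all of the 8 among them. How many of all genes had both calls was not counted. *Syt4*, which sits on dense-core granules and binds calcium weakly, was at 280, 268, 174 and 174 CPM in C and 6.0, 4.21, 8.12 and 7.65 in FSC. It was at 77 ± 13.6 in L, the lowest HPC type, and the log2 difference from FSC was 4.61 ± 0.30 (edgeR adjusted p = 4.3e-09). *Syt7*, the high-affinity calcium sensor of slow and endocrine release, was at 172, 153, 199 and 215 CPM in S and 33 ± 1.98 in C, and its difference from FSC was 3.56 ± 0.31 (adjusted p = 1.11e-07). *Syt14* (3.81 ± 0.28), *Syt13* (2.64 ± 0.33) and *Syt17* (2.39 ± 0.18) also passed against FSC. *Syt11* (0.62 ± 0.21) and *Syt9* (difference 1.0 ± 0.32) passed with smaller differences that were lost without lane 1 (*Syt11*, adjusted p = 0.0797) and without lane 2 or 4 (*Syt9*, 0.235 and 0.0686).

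*Syt1*, the fast calcium sensor of synapses, did not pass between HPC and FSC (log2 difference 0.49 ± 0.20, edgeR adjusted p = 0.0572). Its levels were uneven among HPC: 62.8 ± 7.06 CPM in C, 49.8 ± 8.18 in S, 29.8 ± 19.3 in T, 22.6 ± 6.17 in L and only 2.95, 3.24, 0 and 1.75 in G, below the FSC lanes at 17.8, 13, 17.7 and 15.8. *Syt5* was highest in FSC at 78.2, 109, 65.8 and 65.7 CPM and was lower in HPC (log2 difference -1.48 ± 0.23, adjusted p = 6.98e-05). Leukocytes and endothelial cells had 1 and 2 UMIs of *Syt5*. *Syt12* was at 6.32 CPM in FSC and 0.286 to 9.43 in HPC, with no UMI in leukocytes or endothelial cells. *Syt6* had no UMI in FSC, leukocytes or endothelial cells, and 83 of its UMIs lay in L, at 14.7, 18.8, 16.7 and 16.7 CPM. Against the level of 3 UMIs in all FSC, 0.138 CPM, every lane of L was higher, and 63 further UMIs lay in the much more numerous S. The *Syt6* call of HPC against FSC (log2 difference 5.73) was not made without lane 4, where the fitted difference was 4.09. The cause was not tested.

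The 2 complexins differed. *Cplx2* was at 45.9 ± 10.6 CPM in L, 24.8 ± 3.11 in S, 20.8 ± 12.4 in G, 8.0 ± 1.21 in C and 34 ± 4.35 in FSC, and lay lower in HPC than in FSC (-0.86 ± 0.23, adjusted p = 0.00508). *Cplx1* was sparse, with 25 of its UMIs in G, at 8.85, 8.63, 9.35 and 5.26 CPM, and 3 in FSC. Its call against FSC (log2 difference 3.59) was not made without lane 4, where the fitted difference was 1.94. That against leukocytes and endothelial cells was lost without lane 1, 2 or 3 (edgeR adjusted p = 0.053, 0.053 and 0.0982). It was also not made without lane 4, at a fitted difference of 4.395, against 3.76 with all lanes.

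Priming and tethering factors gave a split between paralogs. *Unc13a*, the main UNC13 of synapses, was higher in HPC than in FSC (4.11 ± 0.43, edgeR adjusted p = 9.84e-07), at 23 ± 4.78 CPM in S, 19.9 ± 10.9 in L, 8.85 ± 1.92 in C and 0.93 ± 0.52 in FSC. *Unc13b* went the other way, at 25.9, 28.9, 28.2 and 26.3 CPM in FSC and 2.81 to 10.6 in the HPC types (-2.49 ± 0.25, adjusted p = 6.02e-07). The second entry of *Unc13c* was at 25.1, 25.2, 4.61 and 5.89 CPM in T and 4.21, 5.05, 11.4 and 10.8 in L, with 1 UMI in C and 2 in G. Its T values came from 8 of 88 cells. *Unc13d*, needed for granule release in cytotoxic cells, had 41 UMIs in leukocytes (15.3 ± 2.31 CPM) and 52 in endothelial cells (35.6 ± 12 CPM), and in HPC 2 in C, 4 in S and 0 in G, T and L. Of the RIMs, the scaffold proteins that bind Rab3, *Rims2* was higher than in FSC (3.52 ± 0.45, adjusted p = 1.68e-05), at 7.47 to 12.8 CPM in HPC against 0.795 ± 0.50, with no UMI in leukocytes or endothelial cells. *Rims1* (0.54 ± 0.46) and *Rims4* (-0.42 ± 0.51) did not pass against FSC, and *Rims3* was too sparse to test.

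All 6 *Rab3* and *Rab27* genes were higher in the mean of the HPC types in both comparisons. Against FSC the *Rab3d* call was kept in 12 of 14 alternatives and the *Rab27b* call in 13 of 14. Of all genes, 19.5% were higher against FSC and 29.1% against leukocytes and endothelial cells, and the share with both calls was not counted. The 6 genes also all differed among the HPC types, as did 38.5% of all genes. *Rab3a*, the Rab3 of synaptic vesicles, spread over a narrow range: 237 ± 39.7 CPM in G, 214 ± 27.4 in T, 168 ± 10.7 in C, 157 ± 6.32 in S, 104 ± 20.7 in L and 21.1 ± 0.87 in FSC. *Rab3b* was at 1229, 1215, 1257 and 1223 CPM in C, and no lane of another type passed 222 CPM. The difference of C from the other 4 HPC types was 3.92 ± 0.33 on the log2 scale (edgeR adjusted p = 6.51e-07). *Rab3c* was at 40, 49.1, 44.7 and 25.5 CPM in L and 2.55 to 13.6 in the other HPC types, with 5 UMIs in FSC. *Rab3d*, known from exocrine granules, was at 108 ± 74.3 CPM in L, 76.4 ± 10.6 in S and 18 ± 4.58 in G, and endothelial cells had 41.4 ± 6.35.

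*Rab27a* and *Rab27b*, which dock granules at the plasma membrane, differed in pattern. *Rab27a* was at 184, 167, 162 and 143 CPM in C and 76.7 to 105 in the other HPC types, and was also present in leukocytes (44.2 ± 8.49) and endothelial cells (42 ± 14.1), while FSC had 11.1 ± 2.25. *Rab27b* was highest in T, at 69, 40.3, 69.1 and 70.7 CPM, then in L (47.1 ± 18.8), with 11.3 ± 1.81 in S, near the 10.4 ± 1.05 of FSC. T was above the other HPC types by 1.61 ± 0.29 on the log2 scale (adjusted p = 0.00399), and S below them (-1.50 ± 0.27, adjusted p = 0.00117).

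**Figure D3:**
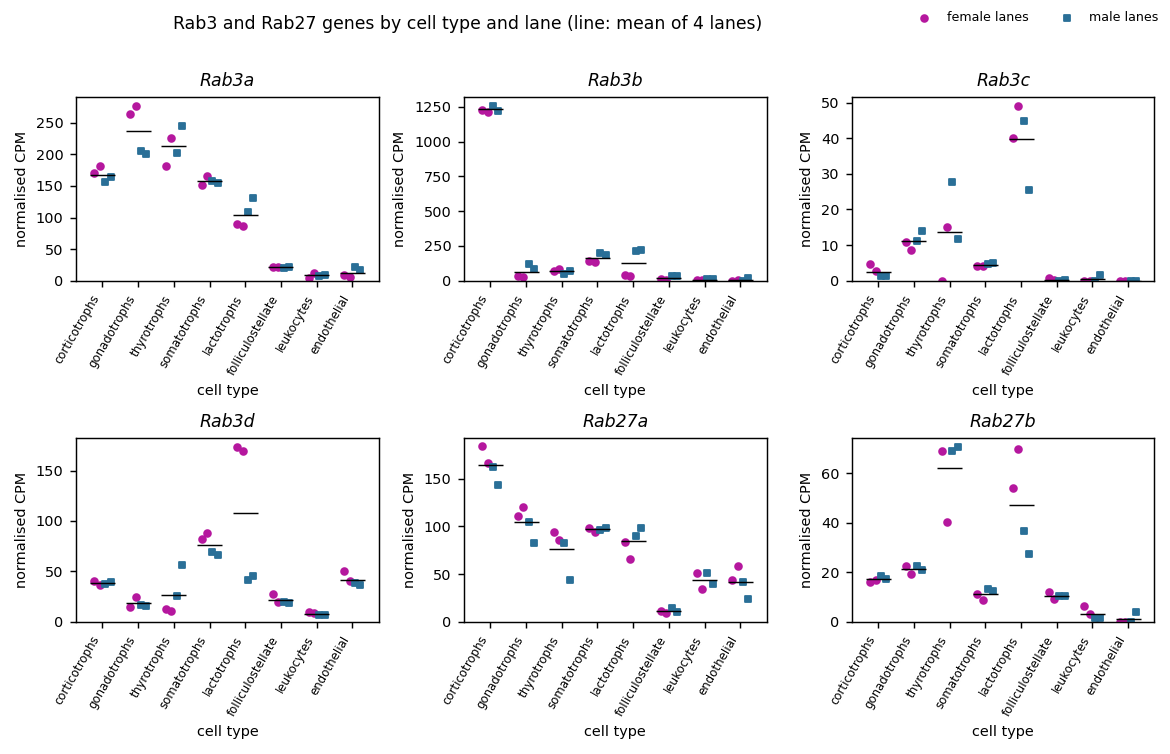
Normalised CPM of the 6 *Rab3* and *Rab27* genes in 8 cell types, 1 point per lane (circles female, squares male) and a line at the mean of 4 lanes. *Rab3b* lies at 1215 CPM or more in all 4 corticotroph lanes, and its female and male lactotroph lanes are apart (40.7 and 32.5 against 214 and 222 CPM).

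Synapsins were low. *Syn1* was at 19.5 CPM in C, 8.58 to 11.7 in the other HPC types and 4.30 in FSC (1.46 ± 0.27, adjusted p = 0.000432). *Syn2* was at 9.13 ± 1.12 CPM in L and 8.89 ± 8.28 in G, with 4 UMIs in C. Its call against FSC (log2 difference 2.68) was not made without lane 2, where the fitted difference was 1.14. *Syn3* had 92 UMIs in the whole file and was not tested. The other 7 untested genes were *Rims3*, *Syt10*, *Syt15*, *Syt16*, *Stxbp5l*, *Stx11* and *Stx7*, with 32 to 79 UMIs each, and 30 of the *Syt16* UMIs lay in S and 20 in L.

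Start regions were taken from a table of RefSeq promoters (GRCr8), in which 52 of the 67 genes were matched by symbol, 49 of them with a single start. They are shown for 3 genes that were higher in HPC in both comparisons, since *Rab3a* and *Rab3b* are paralogs of which the second was so much higher in C, and *Vamp2* is the SNARE they work with on granules. Each runs from 250 bases before the gene's start to 50 after it. Capitals mark TGACG on either strand (as CGTCA on the other), the core of the cAMP response element TGACGTCA.
Rab3a (chr16:18722224-18722523, minus strand): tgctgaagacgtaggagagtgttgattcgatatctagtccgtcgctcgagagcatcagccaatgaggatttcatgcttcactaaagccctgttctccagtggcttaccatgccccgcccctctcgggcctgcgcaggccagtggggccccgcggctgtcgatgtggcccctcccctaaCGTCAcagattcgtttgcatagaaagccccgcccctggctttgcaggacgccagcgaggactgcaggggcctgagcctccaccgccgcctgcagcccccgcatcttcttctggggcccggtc
Rab3b (chr5:128858841-128859140, plus strand): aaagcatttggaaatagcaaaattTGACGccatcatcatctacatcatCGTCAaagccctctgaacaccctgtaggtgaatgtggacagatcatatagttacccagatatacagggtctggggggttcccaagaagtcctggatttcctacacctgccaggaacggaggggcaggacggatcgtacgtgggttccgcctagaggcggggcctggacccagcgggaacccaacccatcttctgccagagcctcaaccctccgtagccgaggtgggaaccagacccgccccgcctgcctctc
Vamp2 (chr10:54292539-54292838, plus strand): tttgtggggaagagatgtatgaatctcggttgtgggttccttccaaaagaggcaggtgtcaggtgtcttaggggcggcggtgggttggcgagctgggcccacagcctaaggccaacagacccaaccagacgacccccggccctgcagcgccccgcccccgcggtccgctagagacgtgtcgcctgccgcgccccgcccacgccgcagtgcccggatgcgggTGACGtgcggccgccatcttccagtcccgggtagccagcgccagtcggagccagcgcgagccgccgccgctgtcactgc

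TGACG was found in 16 of the 49 single-start regions (32.7%) and in 21.2% of all 33469 start regions of the table. It was in 7 of 18 such regions of genes higher in HPC than FSC and in 3 of 7 of genes lower. The whole element TGACGTCA was in 2, *Vamp1* and *Syn1*, with 1.83% of all regions holding it. The RE1 element, which the repressor REST binds, was, in its consensus form, in 0 of the 49 and in 0.0299% of all regions. TATAAA, the TATA box, was in 2 of the 49 (4.08%) and in 14.2% of all.

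Other genes of the pathway came from a list set by function, of which 47 of 62 could be tested. Against FSC, 22 were higher in HPC and 6 lower (46.8% and 12.8%, with 19.5% and 29.3% of all genes). Against leukocytes and endothelial cells, 26 were higher and 7 lower (55.3% and 14.9%, with 29.1% and 27% of all genes). Their median log2 difference was 0.61 against FSC and 0.70 against leukocytes and endothelial cells, beside -0.12 and 0.06 over all genes. Active zone scaffolds had 7 of 8 higher than in FSC (19.5% of all genes), *Bsn* (bassoon, 3.67 ± 0.52) and *Pclo* (piccolo, 2.39 ± 0.33) among them, and all 8 higher than in leukocytes and endothelial cells (29.1% of all genes). *Syp*, the vesicle protein synaptophysin, was at 37.7 to 86.0 CPM in HPC and 0.610 in FSC (6.52 ± 0.33, edgeR adjusted p = 6.5e-10). None of the 7 exocyst genes tested passed against FSC, all of them between 5.54 and 51.1 CPM in each HPC type. SNARE recycling had 3 of 5 higher and 1 lower than in FSC (19.5% and 29.3% of all genes). *Nsf*, the ATPase that takes SNAREs apart, was highest in G (44.6 CPM). Some of these genes were high in 1 HPC type: *Doc2g* at 861 CPM in C against 1.31 to 4.66 in the others, *Otof* (otoferlin, a calcium sensor of hair cells) at 125 CPM in G and *Ppfia4* (a liprin) at 68.2 CPM in G. *Sytl4* (granuphilin, a Rab27 effector) was at 320 CPM in C, 188 in S and 5.60 in L, with 138 in FSC.

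Whether HPC types carry the same set was asked with an F-test over the 5 types. It was passed by 36 of the 59 genes (61%), and by 38.5% of all genes tested. Compared with the mean of the other 4, C had 11 genes higher and 11 lower (11.7% and 8.36% of all genes), G 6 and 6 (8.57% and 4.11%), T 3 and 1 (3.74% and 1.55%), S 8 and 3 (9.26% and 6.27%), and L 13 and 6 (10.5% and 4.86%). T had 88 cells, so its values are the least precise. The lists of high and low genes of each type are relative to the others: C, being 1 of the others for every other type, enters each of their values.

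Beside *Rab3b*, corticotrophs were higher than the other HPC types in *Syt13* (98.7 ± 16.3 CPM, 2.38 ± 0.22 on the log2 scale), *Syt1* (1.93 ± 0.19), *Stxbp2* (1.31 ± 0.20) and *Snap25* (1.14 ± 0.29), with edgeR adjusted p from 1.86e-06 to 0.00976. They were lower in *Stx16*, a syntaxin of the trans-Golgi network, at 2.61, 2.33, 3.03 and 5.46 CPM. Every other cell type in the fit had a mean of 19.4 CPM or more of *Stx16*. The difference of C from the other HPC types was -3.33 ± 0.26 (edgeR adjusted p = 3e-07). Erythrocytes, left out of the fit, had no *Stx16* UMI in 361 cells. Of the cells set aside, melanotrophs held 7.84 CPM of *Stx16* (5 UMIs), pericytes 16.8 (6 UMIs) and posterior pituitary cells 23.1 (15 UMIs). These values use no TMM scaling and are not on the scale of the other levels. Corticotrophs were also lower in *Syt7* (-1.68 ± 0.27) and *Syt17* (-1.32 ± 0.18).

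Somatotrophs were highest in *Stx16*, at 74.1, 79.7, 70.8 and 75 CPM (2.20 ± 0.17, edgeR adjusted p = 6.63e-07), and, among the HPC types, in *Syt7* (1.42 ± 0.22), *Syt5* (63.6 ± 15.3 CPM, 1.52 ± 0.25) and *Stxbp6* (2.91 ± 0.52). *Syt3* was low there, at 0.895 ± 0.45 CPM (-2.79 ± 0.58). Among the HPC types, lactotrophs were highest in *Syt17*, at 101, 113, 118 and 135 CPM (1.63 ± 0.15, adjusted p = 4.2e-06), in *Rab3c* (2.58 ± 0.31), *Cplx2* (1.72 ± 0.25), *Vamp4* (0.93 ± 0.15) and *Vamp8* (0.89 ± 0.16), and lowest in *Syt4* (-1.24 ± 0.24) and *Syt11* (-1.35 ± 0.27). In gonadotrophs *Syt1* was lower (-4.01 ± 0.35, adjusted p = 1.26e-06) and *Cplx1* higher (2.59 ± 0.59). Thyrotrophs were higher in *Stxbp4* (29.2 ± 8.34 CPM, 1.93 ± 0.31), *Rab27b* and *Unc13c* and lower in *Syt13* (4.88 ± 1.79 CPM, -3.10 ± 0.51), and the *Unc13c* call was lost without lane 2 (adjusted p = 0.0631).

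**Figure D4:**
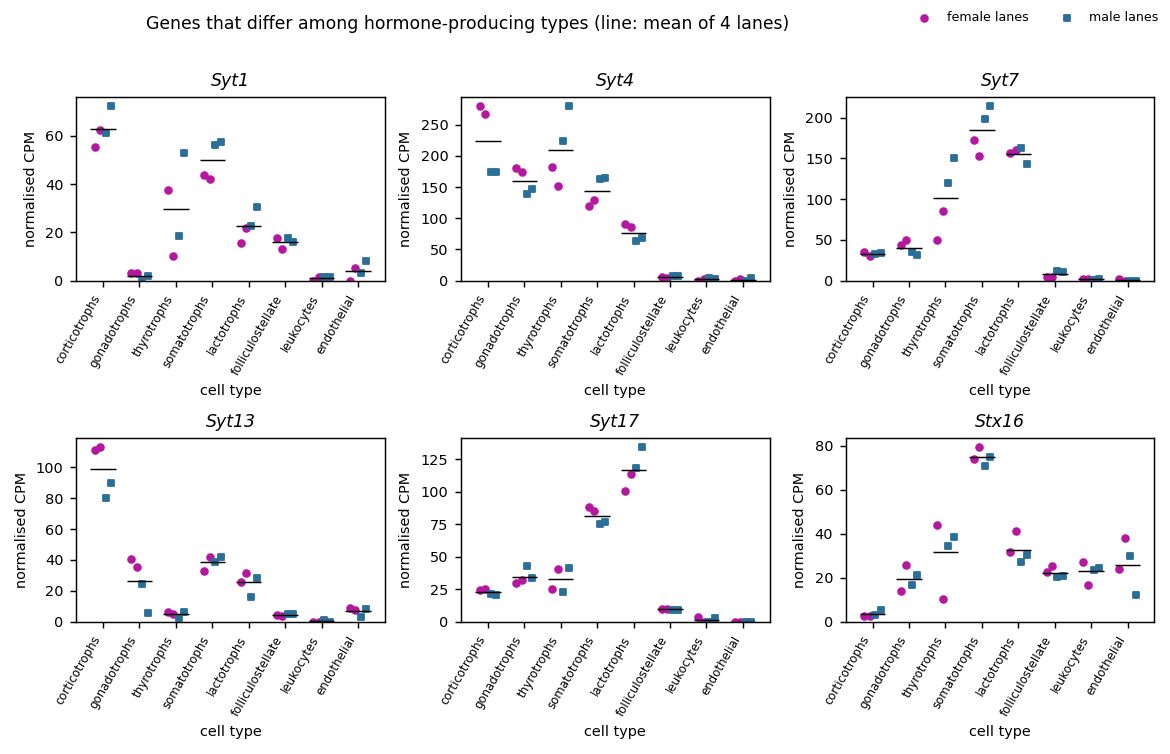
Normalised CPM of 6 genes in 8 cell types, 1 point per lane (circles female, squares male) and a line at the mean of 4 lanes. *Syt1* is near 0 in gonadotrophs (0 to 3.24 CPM), *Stx16* is lowest in corticotrophs (2.33 to 5.46 CPM), and *Syt7* and *Syt17* are highest in somatotrophs and lactotrophs.

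Sex was compared within 5 types, 2 female against 2 male lanes of each. In L, 9 of 48 genes tested were higher in females and 10 in males (19.4% and 15% of all genes). In G these were 7 and 1 of 36 (8.35% and 6.5%), in S 3 and 7 of 54 (13% and 13.5%), in C 2 and 0 of 48 (0.957% and 0.453%), with 1 gene of C at an unadjusted p under 0.05 in the male direction, and in FSC 2 and 8 of 51 (6.1% and 5.61%). DESeq2 called fewer in the same lanes: 4 in L, 1 in G, 4 in S, 1 in C and 5 in FSC. Lactotrophs of females had more UMIs per cell (median 18301 against 7214.5) and gave a larger share of them to *Prl*, 32% and 31% against 18.3% and 17.6%. When scaled by library size alone, the median of all genes in L moved from -0.02 to -0.68 on the log2 scale, and 2 genes were higher in females and 24 in males. The part of depth in these counts was not tested. Since lanes of a sex share 1 pool, these p-values measure technical spread.

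*Rab3b* was lower in females in 4 of the 5 types. It was at 40.7, 32.5, 214 and 222 CPM in L, at 32.5, 22.6, 118 and 82.4 in G, and at 8.35, 7.21, 31.2 and 33.9 in FSC, so the female lanes lay below the male lanes in each. The difference was -2.57 ± 0.15 on the log2 scale in L (edgeR adjusted p = 5.56e-23), -1.83 ± 0.26 in G (0.000129), -2.06 ± 0.16 in FSC (1.35e-07) and -0.44 ± 0.06 in S (4.95e-07). In C, where it was highest, the lanes were alike (1229 and 1215 against 1257 and 1223 CPM).

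*Rab3d* went the other way in L, at 174, 170, 41.2 and 45.2 CPM (1.99 ± 0.15, edgeR adjusted p = 1.99e-17), and in S, at 82.6, 88.1, 68.9 and 66.1 (0.34 ± 0.08, adjusted p = 0.00098). The L lanes of females were all above those of males. *Snap25* was lower in females in L, at 162, 140, 333 and 303 CPM (-1.08 ± 0.11, adjusted p = 5.06e-13), and higher in females in G, at 321, 313, 224 and 228 (0.50 ± 0.12, adjusted p = 0.0104). The G value was lost without lane 3 or lane 4 (adjusted p = 0.0704 and 0.0803). *Syt3* was higher in females in L, at 21, 26, 5.26 and 8.84 CPM (1.74 ± 0.38, adjusted p = 0.000166). The next by p in L were *Rab27b* (0.93 ± 0.22), *Vamp4* (0.56 ± 0.14), *Unc13a* (1.27 ± 0.33), *Snap23* (0.86 ± 0.23) and *Stx18* (0.83 ± 0.23), higher in females, and *Vamp2* (-0.47 ± 0.11), higher in males. Of these the *Unc13a* call was lost without lane 1 or lane 3 (adjusted p = 0.0771 and 0.0503). Of all 19 calls in L, 9 held whichever lane was left out, and 4 under all alternatives (*Rab3b*, *Rab3d*, *Snap25* and *Syt3*). Out of 11 alternatives, *Snap23* and *Stx18* kept the call in 7, *Rab27b* and *Vamp4* in 8 and *Vamp2* in 9. With scaling by library size the *Vamp4* difference turned to -0.0989 and that of *Syt4* (0.44 ± 0.16 with TMM) to -0.223.

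In C, *Syt4* was higher in females, the 2 female lanes being at 280 and 268 CPM and both male lanes at 174 (0.66 ± 0.07, edgeR adjusted p = 9.6e-08). It was lower in females in S (-0.40 ± 0.06, adjusted p = 3.8e-06), at 120, 128, 163 and 165. *Syt5* was higher in females in S (0.60 ± 0.08, adjusted p = 3.25e-07), at 75, 78.5, 50.3 and 50.5. *Syt7* (-0.35 ± 0.06), *Syt1* (-0.41 ± 0.09) and *Stxbp2* (-0.62 ± 0.16) were higher in males in S, and the last was lost without lane 4 (adjusted p = 0.0638). *Syt13* was higher in females in C (0.41 ± 0.10), and this was lost without lane 1, 2 or 3 (adjusted p from 0.0504 to 0.303). In G, *Cplx2* (24.6, 36.7, 11.2 and 10.5 CPM) and *Syn2* (16.7, 15.1, 3.74 and 0 CPM) were higher in females by 1.49 ± 0.42 and 3.04 ± 0.74 on the log2 scale (adjusted p = 0.0239 and 0.00985), and both were lost without lane 4 (0.0799 and 0.136), *Cplx2* also without lane 2 (0.286). *Snap91* (0.94 ± 0.25), *Rab3a* (0.43 ± 0.13), *Syt13* (1.40 ± 0.43) and *Vamp2* (0.43 ± 0.14) were higher in females in G too, and each of these calls was lost without at least 1 lane.

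In FSC, *Snap25*, *Syt7* (3.86, 4.01, 12.3 and 10.1 CPM), *Rims1* and *Stxbp6* (5.78, 5.81, 13.9 and 18.0 CPM) were higher in males, with log2 differences from -1.66 (*Snap25*) to -1.26 (*Rims1*). The *Rims1* call was lost without lane 1 (adjusted p = 0.0776). *Syt5* (0.52 ± 0.11) and *Vamp7* (0.27 ± 0.08) were higher in females, and *Stx18* (-0.36 ± 0.08), *Vamp8* (-0.22 ± 0.06) and *Vamp5* (-0.49 ± 0.15) in males, all of them calls that were lost without at least 1 lane. Hormone transcripts moved in the same FSC sums: *Cga* made up 0.0483% and 0.0347% of UMIs in the female lanes and 0.157% and 0.252% in the male lanes, and *Gh1* 0.274%, 0.25%, 0.323% and 0.454%. *Prl* ran the other way, at 0.123% and 0.144% in the female lanes and 0.0320% and 0.0270% in the male lanes, as did *Lhb* (0.00952%, 0.0101%, 0.00300% and 0.00384%). Their part in the FSC values was not tested. T, with 18 and 19 female cells and 28 and 23 male cells per lane, was not tested between the sexes, and its *Snap25* lanes were at 646 and 383 CPM in females and 323 and 318 in males.

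**Figure D5:**
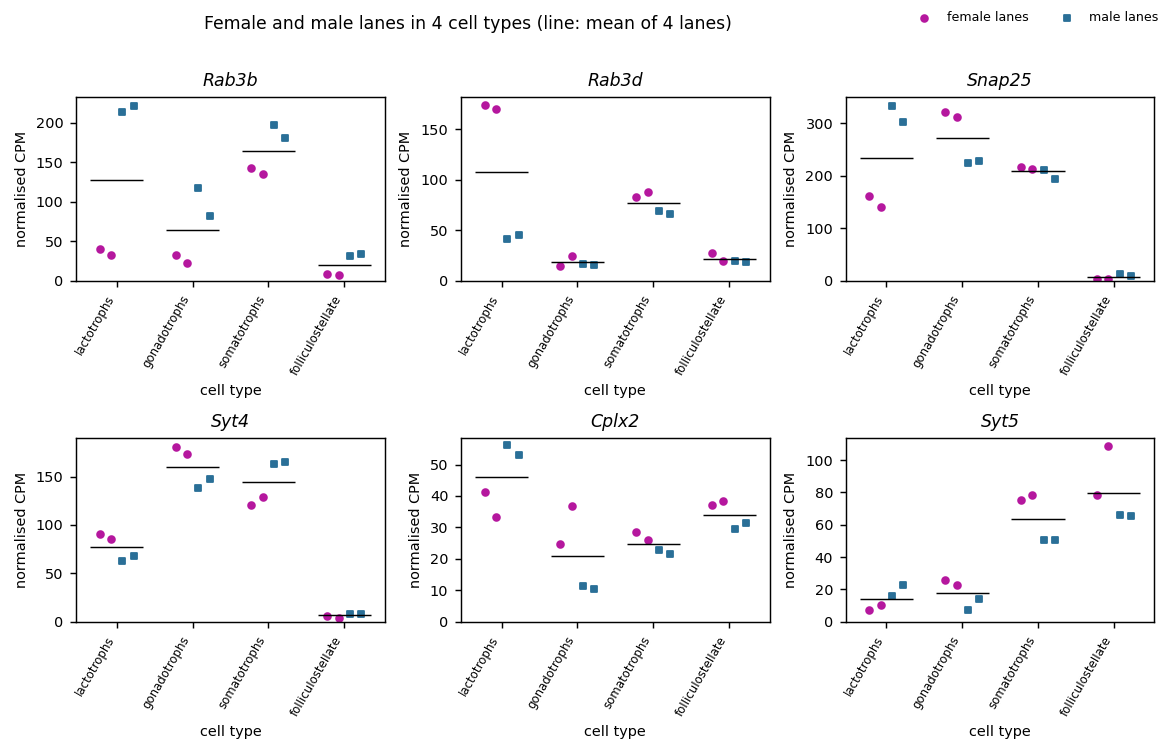
Normalised CPM of 6 genes in 4 cell types, 1 point per lane (circles female, squares male) and a line at the mean of 4 lanes. *Rab3b* is lower and *Rab3d* higher in female lactotroph lanes, and *Snap25* lies in opposite order in lactotrophs and gonadotrophs.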

How the data were processed

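Dispersed anterior pituitary cells were sequenced with 10X Genomics 3′ chemistry. The deposited table holds raw UMI counts per gene and cell (30058 genes, 7861 cells, a median of 8853 UMIs per cell), which the authors made with Cell Ranger 2.1 against an NCBI rat annotation with extended 3′ ends and combined after equalizing mapped reads between lanes, per the labels and the study's methods. Lanes are the numbers in the barcodes and were matched to the sexes by the cell numbers that the study gives. The barcode sequences of 60 cells occur in more than 1 lane.

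Cells were typed by the study's marker genes with Otsu thresholds per sex. Pericytes, melanotrophs and posterior pituitary cells were set aside, 221 cells took the type of their 30 nearest neighbours, and cells with a high mitochondrial share, extreme depth, markers of several types (205) or a doublet call (197, against synthetic pairs of cells) were removed. The genes described here were kept out of the variable genes used. UMIs were summed per type and pool (all types of a pool come from the same animals, so pool was a block), or per lane for the sexes, and tested with edgeR 4.0.16 (TMM, filterByExpr with a minimum count of 10, quasi-likelihood test, 2-sided, Benjamini-Hochberg adjustment over all genes, limit 0.05). Erythrocytes were left out of the fit. A standard error is the log2 difference over the square root of F. Intervals of counts are exact at 95% and, like the limit of 3 UMIs for a count of 0, cover counting error only. The scripts were tested on simulated data. DESeq2 1.42.0, other scalings and filters, thinned cells and leaving out lanes were alternatives. Promoters came from RefSeq (GRCr8).

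By the rule for naming, the text names a set list of genes with roles in fusion whatever their values, up to 10 called genes with the largest changes per direction, the 12 with the lowest F-test p and up to 10 called genes by p in each sex comparison. The *Unc13c* gene is listed 2 times and the entry with UMIs was used. Some genes are counted but not reported by name here. The members, lists and tests were chosen with earlier results of these data known.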

Additional observations from a re-analysis of the deposited data

Results flagged for a closer look

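An interaction test, chosen after seeing the data, asked whether the difference between female and male lanes differs between L, G, S, C and FSC (1 edgeR quasi-likelihood fit over the lanes of these 5 types, adjusted over 13488 genes). It was passed by 24 of the 58 genes tested, and by 27.5% of all genes. Lanes of a sex share 1 pool, so the test compares these pools.

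*Rab3b* had an adjusted p of 2.74e-17, with female minus male log2 differences of -2.55 in L, -1.79 in G, -2.07 in FSC, -0.45 in S and -0.02 in C. *Snap25* had 3.39e-12, with -1.05 in L, 0.54 in G and -1.66 in FSC. *Syt4* had 1.34e-10, with 0.46 in L, 0.66 in C and -0.41 in S. *Rab3d* had 2.66e-09, with 2.02 in L and 0.01 in C. *Syt7* had 1.54e-05, with -1.51 in FSC and 0.07 in L.

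The other adjusted p-values were 0.000234 for *Stx18*, 0.000414 for *Vamp2*, 0.00155 for *Cplx2*, 0.00171 for *Rab3a*, 0.00282 for *Vamp8*, 0.00291 for *Rab27b*, 0.00453 for *Snap23*, 0.00655 for *Stx1a*, 0.00817 for *Rims1*, 0.00872 for *Syt13*, 0.0131 for *Unc13a*, 0.0153 for *Stx4*, 0.0189 for *Syt5*, 0.0232 for *Snap91*, 0.0262 for *Stxbp6*, 0.0331 for *Syn2*, 0.0351 for *Syt14*, 0.0461 for *Rims4* and 0.0487 for *Stxbp2*. *Cplx2* (-0.53 in L, 1.53 in G) and *Syt5* (-1.13 in L, 1.20 in G) had opposite signs in L and G. In the tests within 1 type, *Syt5* did not pass in G (edgeR adjusted p = 0.0863), and its L call was kept in 6 of 10 alternatives. The *Cplx2* call was kept in 4 of 11 alternatives in L and in 5 of 10 in G. *Stxbp6* had 2 UMIs and *Rims4* 6 UMIs in L, and *Syn2* had few in C, so these interactions rest on few molecules.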

How the results depend on the processing

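Counts of the genes described here were recomputed under each alternative. With equal numbers of cells per type and pool, 15 were higher and 5 lower in HPC than in FSC, 21 were higher than in leukocytes and endothelial cells, and 22 differed among HPC types (26, 11, 34 and 36 as reported). These fits hold fewer cells. At an adjusted p below 0.001, 5 were lower than in FSC, 22 higher and 7 lower than in leukocytes and endothelial cells, and 15 differed among HPC types. Library size in place of TMM left 7 lower than in leukocytes and endothelial cells, and the cause was not tested. Without thyrotrophs, an alternative chosen after seeing the data, the counts were 26, 10, 36, 10 and 33. Leaving out each lane in turn gave 23 to 27 higher and 10 to 11 lower than FSC, 30 to 33 higher and 8 to 11 lower than leukocytes and endothelial cells, and 31 to 35 that differed among HPC types. Of 37 calls against FSC, 22 held under all alternatives, and of 45 against leukocytes and endothelial cells, 29.

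The sex counts (19 in L, 8 in G, 10 in S, 2 in C and 10 in FSC) moved more. DESeq2 gave 4, 1, 4, 1 and 5, thinned cells 4, 2, 3, 1 and 5, and an adjusted p below 0.001 gave 7, 1, 6, 1 and 4. Library size gave 2 in G and 1 in C, no filter on low counts 1 in C and 4 in FSC, and cells typed by their own markers alone 1 in C. Leaving out a lane gave 12 to 15 in L, 2 to 7 in G, 7 to 9 in S, 1 to 2 in C and 5 to 8 in FSC, with fewer samples in each fit. Scaling by library size turned *Vamp4* (-0.0989) and *Syt4* (-0.223) in L. Beyond the construction of a fit, the cause of these moves was not tested.

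A fit with no replicate block, chosen after seeing the data, gave the same counts (26 and 11, 34 and 11, and 36), and lost, among others, *Vamp5* among HPC types (adjusted p = 0.0736), *Rab3b* in G (0.104) and *Vamp5* and *Rab3d* in S (0.0511 and 0.0672). Lanes of the sexes come from separate pools and were not paired. Thyrotrophs (18 to 28 cells per lane), endothelial cells and genes of few UMIs are limited by depth.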

Other observations

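Cells set aside by their markers were not part of any comparison. The 56 melanotroph cells (54 from male lanes) held 343 UMIs of *Snap25*, or 538 CPM of their own total (exact 95% interval 482 to 598, counting error only), 475 CPM of *Rab3b* (423 to 532), 342 CPM of *Syt4* (298 to 390) and 43.9 CPM of *Syt7* (29.2 to 63.4). The 56 posterior pituitary cells held 40.0 CPM of *Snap25* (26.1 to 58.6) and 16.9 CPM of *Rab3b* (8.44 to 30.3). The 49 pericytes held 3 UMIs of *Snap25* and none of *Syt4*, *Syt7* or *Rab3c*. With 357658 UMIs in all pericytes, a count of 0 allows up to 10.3 CPM (exact 95% interval). These values use no TMM scaling and are not on the scale of the other levels.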
